A study of Mus musculus with 8 samples.

Results

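The genes described here encode factors that write, read or erase methyl groups on H3K9 and H3K36, together with proteins that build or maintain heterochromatin. They were taken from a list of 35 gene symbols, and for each gene the brightest probe set annotated to that symbol alone, by its mean over the 8 arrays, was used. Of the 35 genes, 32 could be measured in this way, among 18193 genes in all. These were 27 of 28 H3K9 and heterochromatin factors and 5 of 7 H3K36 factors. Suv39h1, Ash1l and Morf4l1 had no value under this rule, Morf4l1 because all of its 8 probe sets were annotated to several symbols.

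Methylated H3K9 is bound by the chromodomains of HP1 proteins and marks compacted, mostly silent chromatin, whereas H3K36 methylation is laid down over gene bodies by enzymes that in part travel with elongating RNA polymerase II and is read by PWWP and related domains. Jmjd2b (array symbol Kdm4b) and Jmjd2c (Kdm4c) are JmjC-domain demethylases that act on trimethylated and dimethylated H3K9, and the family can also act on H3K36. In ES cells, H3K9 methyltransferases and their partners silence retroelements and lineage genes.

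The study asked what Jmjd2b and Jmjd2c contribute to the identity of mouse ES cells. The cells were male ES cells of the 129S4/Svjae strain (agouti), kept with LIF, a cytokine that sustains self-renewal. All groups received an shRNA lentivirus, were selected with puromycin and were passaged 2 to 3 times before RNA was taken. The hairpin targeted GFP in 3 samples, which served as controls, Jmjd2b in 3 samples and Jmjd2c in 2. A single hairpin label stood for each target, no uninfected cells were included, and no label said whether replicates came from separate infections, so the p-values below measure a spread between samples that may be technical.

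Total RNA was hybridised to 1 array per sample, and the values are array intensities on a linear scale, with medians between 44.7 and 46.6 per array. The number of arrays limits the precision. Kdm4b stood at 6.89% of control in the Jmjd2b knockdown (adjusted p = 7.6e-05 in limma), and Kdm4c at 23.9% of control in the Jmjd2c knockdown (adjusted p = 0.0069). Each hairpin also went with lower values of the other target, although neither was past the threshold with all 8 arrays fitted together. Kdm4c was at 57.3% of control with the Jmjd2b hairpin (adjusted p = 0.102). It read 752, 800 and 650 there and 1332, 1300 and 1210 in controls, without overlap. That fit shares its spread with the Jmjd2c arrays, which read 142 and 469, and Kdm4c did pass with only the 2 groups compared. Kdm4b was at 56.6% of control with the Jmjd2c hairpin (adjusted p = 0.178). Its arrays did not overlap either, but it did not pass with only the 2 groups compared. Kdm4a, a relative, fell to 56.7% in the Jmjd2b knockdown (adjusted p = 0.0011). By the exactly equal values they shared, the arrays fell into 3 sets: controls 1 and 2 with Jmjd2b array 2, control 3 with Jmjd2b array 1, and Jmjd2b array 3 with both Jmjd2c arrays. The Jmjd2c arrays thus shared a set with no control. The ratio of 3' to 5' actin probe sets was 1.45 to 1.63 in controls, 1.31 to 1.42 in the Jmjd2b knockdown and 1.43 to 1.48 in the Jmjd2c knockdown.

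Marker lists showed that the cells also differed in state. Of 10 ES cell markers, 7 fell in the Jmjd2b knockdown and 4 in the Jmjd2c knockdown. Their summed intensity was 67150 to 68991 in controls, 50505 to 53368 with the Jmjd2b hairpin and 54691 to 55525 with the Jmjd2c hairpin, and Pou5f1, the defining pluripotency factor, averaged 7829, 7821 and 7473. Of 9 primed epiblast markers, 8 and 4 rose, and their sums were 4101 to 5631, 14799 to 27867 and 9028 to 14878. Of 7 trophectoderm markers, 4 rose and 1 fell in the Jmjd2b knockdown and 1 rose in the Jmjd2c knockdown, with sums of 3614 to 4133, 5912 to 6869 and 3673 to 4807, and Cdx2, a defining one, averaged 4.24, 442 and 23.6. Of 8 primitive endoderm markers, 2 rose and 1 fell in the Jmjd2b knockdown and 1 rose in the Jmjd2c knockdown, with sums of 541 to 651, 519 to 572 and 494 to 680. Of 9 feeder fibroblast markers, 1 rose and 3 fell in the Jmjd2b knockdown and 2 fell in the Jmjd2c knockdown, with sums of 4824 to 6395, 3392 to 4514 and 4586 to 4970. Fn1 alone averaged 5228, 3493 and 4372, so the feeder sums mostly follow that gene. Tfap2c (3219, 2358 and 3344) and Krt8 (438, 2695 and 479) likewise made up most of the trophectoderm sums. Within the primitive endoderm sums, Lama1 alone averaged 414, 217 and 305. No marker was at 0 as a group mean. The part of these shifts, and of the actin ratio, in the results below was not tested.

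In cells with the Jmjd2b hairpin, 9 of the 32 factors changed. Zmynd11, a reader of trimethylated H3K36 on histone H3.3, rose to 197% of control, and the methyltransferase Ehmt1, the HP1 protein Cbx5, the chromatin remodeller Atrx, the Kdm3-family protein Jmjd1c and the deacetylase Hdac1 rose. The corepressor scaffold Sin3a, the demethylase Kdm1a and the HUSH subunit Mphosph8 fell. Changes are differences of log2(intensity + 16) with a standard error (SE), and a gene is said to have risen or fallen where its adjusted p in limma, with Benjamini-Hochberg adjustment over all 18193 genes, was under 0.05. Fewer cells with a transcript and less of it per cell cannot be told apart in these bulk samples.

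The share of factors that changed was close to that of genes in general. Of the 27 H3K9 and heterochromatin factors, 5 rose and 3 fell (29.6%), and of the 5 H3K36 factors 1 rose (20%), where 24.4% of all genes changed, 11.6% up and 12.9% down. Of the 32 factors, 30 lay in the brighter part of the genes, above the median level. Of those 30, 9 changed (30%), compared with 36.7% of all 9096 brighter genes. The arrays of the 2 groups did not overlap in 20 of 27 and 4 of 5 factors, and in 44.8% of all genes, or 61.9% of brighter ones. The median change was 0.13 over the H3K9 factors and 0.25 over the H3K36 factors, against -0.03 over all genes. The median size of the change regardless of sign was 0.28 over the factors and 0.23 over all genes.

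**Figure D1:**
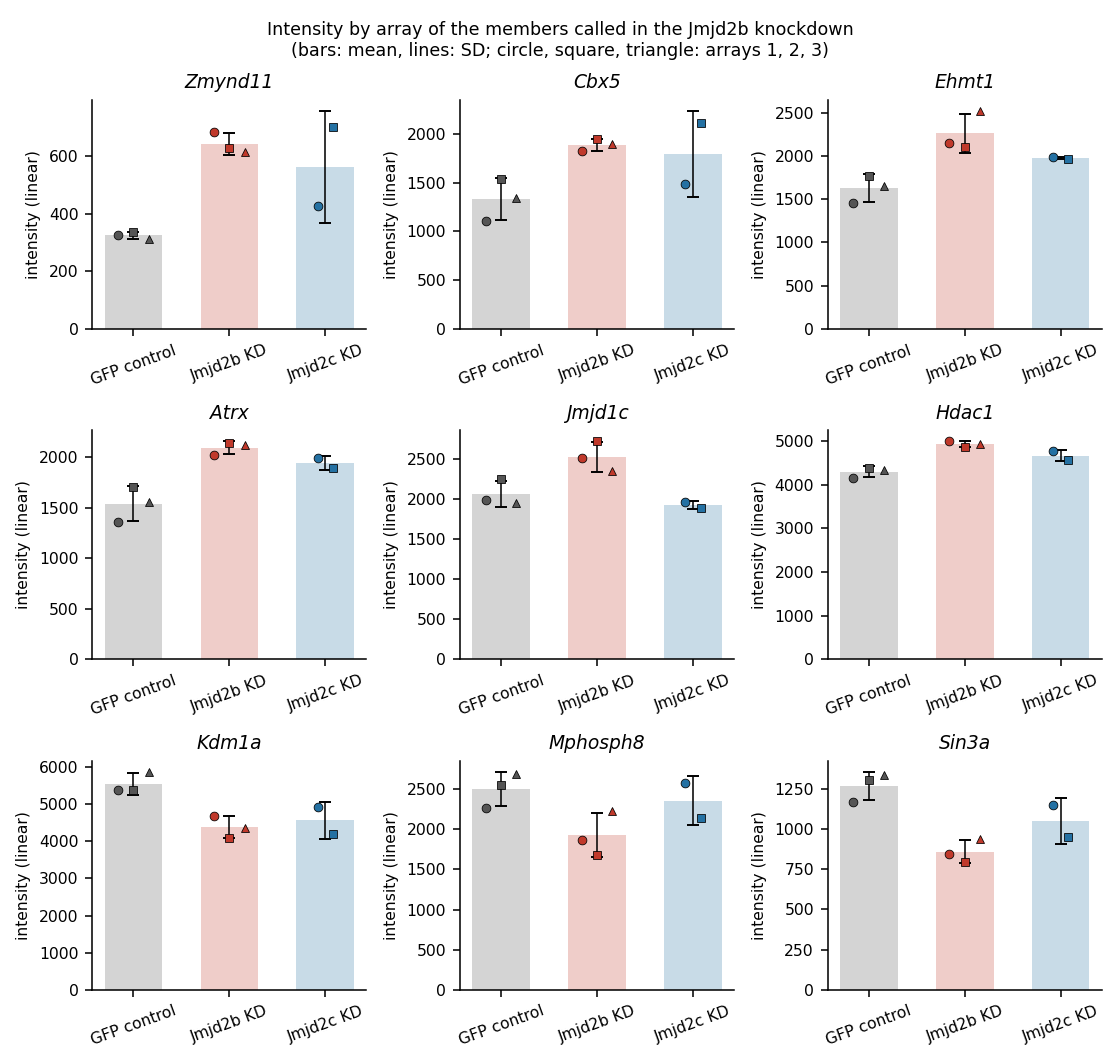
Intensity on each of the 8 arrays (linear axis from 0, array units) for the 9 factors that changed in the Jmjd2b knockdown, with points for single arrays, a bar for the mean and a line for the SD of each group (3 control, 3 Jmjd2b, 2 Jmjd2c arrays). The 3 Jmjd2b arrays lie outside the range of the 3 controls in all 9 panels, and the Jmjd2c points of Zmynd11, at 425 and 700, lie far apart.

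The promoters of the genes with the largest rise and the largest fall are shown because both calls in the Jmjd2b knockdown were kept under all 22 alternatives tried. Both are windows of 300 bases from RefSeq (GRCm38.p6), from 250 before to 50 after an annotated start, read 5' to 3' on the gene's strand. Of several starts in the table, the one with the most CpG dinucleotides is printed. Capitals mark the GC box letters GGGCGG on either strand, so CCGCCC where it lies on the other one. The Zmynd11 window lies at chr13:9764421-9764720 on the minus strand, with 48 CpGs and 2 GC boxes, and the Sin3a window at chr9:57076126-57076425 on the plus strand, with 25 CpGs, 3 GC boxes and 3 CCAAT matches.
Zmynd11: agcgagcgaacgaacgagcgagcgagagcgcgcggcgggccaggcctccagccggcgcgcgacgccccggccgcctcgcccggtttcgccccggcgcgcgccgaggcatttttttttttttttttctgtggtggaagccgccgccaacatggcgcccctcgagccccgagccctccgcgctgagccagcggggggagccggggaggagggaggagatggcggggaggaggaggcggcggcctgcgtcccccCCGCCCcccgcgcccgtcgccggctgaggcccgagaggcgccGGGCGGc
Sin3a: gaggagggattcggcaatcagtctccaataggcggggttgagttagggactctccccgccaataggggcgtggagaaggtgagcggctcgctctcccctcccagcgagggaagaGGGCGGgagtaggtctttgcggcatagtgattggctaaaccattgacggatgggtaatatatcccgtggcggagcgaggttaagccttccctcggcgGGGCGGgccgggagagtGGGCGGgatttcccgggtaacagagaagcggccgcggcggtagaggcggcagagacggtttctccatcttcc

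Promoter windows were found for 27 of the 32 factors, 43 windows in all. Their median GC content was 67.0% and their median CpG count 29, compared with 61.3% and 22 over the 9609 windows of brighter genes and 52.7% and 7 over all 32851 windows. GGGCGG was present on either strand in 34 of 43 windows (79.1%), against 65.8% of brighter genes' and 35.7% of all windows. CCAAT was in 41.9% of the factors' windows, 38.2% of the brighter genes' and 37.4% of all. TATAAA was in 1 of the 43 (2.33%), against 6.66% and 13.6%. These motifs were searched on both strands, and a match describes the letters only.

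Among the H3K36 factors, Zmynd11 binds the trimethylated mark on H3.3 and restrains elongation. It read 325, 338 and 313 in the controls, 684, 628 and 612 with the Jmjd2b hairpin, and 425 and 700 with the Jmjd2c hairpin. Every knockdown array lay above every control, and the Jmjd2c arrays spanned the Jmjd2b values. The means were 325 ± 12.4 (SD, n = 3) in controls and 641 ± 37.5 (SD, n = 3) in the Jmjd2b knockdown, or 197% of control, a log2 change of 0.95 ± 0.17 (SE, adjusted p = 0.0028). All 3 of its brighter probe sets rose, by 0.95, 0.93 and 0.69. Within the array sets that held both groups, the change was 0.89 and 1.09, its sign being fixed because the arrays did not overlap.

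The other 4 H3K36 factors did not pass the test. Psip1 (LEDGF), a PWWP protein bound to H3K36-methylated gene bodies, read 2690, 2975 and 2958 in controls and 3615, 3604 and 3065 with the Jmjd2b hairpin, above all controls, with a change of 0.25 ± 0.09 (adjusted p = 0.0583). The adjusted p of Psip1 was 0.0443 with the array set as a block, but its other brighter probe sets gave -0.12 and 0.05, and with the mean of probe sets the change was 0.06 (adjusted p = 0.670). Setd2, which trimethylates H3K36, read 778, 921 and 865 in controls and 1072, 1095 and 940 with the Jmjd2b hairpin, also without overlap (0.27 ± 0.11, adjusted p = 0.116). Nsd1, which dimethylates H3K36, had a change of -0.10 (adjusted p = 0.607) and values of -0.22, 0.51 and 0.22 at its other brighter probe sets, and Mrgbp, a subunit of the NuA4 acetyltransferase complex that binds MRG-domain proteins, one of -0.17 (adjusted p = 0.329).

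Of 5 H3K9 methyltransferases, 1 rose. Ehmt1 (GLP), which forms the main H3K9 dimethyltransferase with Ehmt2 (G9a), read 1459, 1773 and 1657 in controls and 2154, 2102 and 2521 with the Jmjd2b hairpin. Its Jmjd2b arrays all lay above its controls, at 139% of their mean, a change of 0.47 ± 0.10 (adjusted p = 0.0081). Ehmt2 read 690, 719 and 820 in controls and 547, 459 and 558 with the Jmjd2b hairpin, so its arrays lay below the controls without overlap (70.2% of control, -0.50 ± 0.18), but the adjusted p was 0.0752. The partners of this dimer thus had changes of opposite sign, and only that of Ehmt1 passed the test. Setdb1, which trimethylates H3K9 at retroelements, stood at 89.3% of control (adjusted p = 0.313), its relative Setdb2 at 84.7% (adjusted p = 0.192) and Suv39h2, a pericentromeric methyltransferase, at 109% (adjusted p = 0.465). Ehmt1 had a single probe set, and its adjusted p was 0.0596 with the array set as a block, where its change was 0.38.

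None of 3 partners of these enzymes changed in limma at their main probe sets, and 0 had an unadjusted p under 0.05. Wiz, a zinc-finger partner of Ehmt1 and Ehmt2, had a change of 0.00 (adjusted p = 0.994), and Cdyl, a chromodomain corepressor that binds the same enzymes, one of 0.13 (adjusted p = 0.647). Atf7ip, which stabilises Setdb1, had a change of -0.08 (adjusted p = 0.667). Another probe set of Atf7ip gave a different result. It read 588, 490 and 517 in controls and 389, 352 and 363 with the Jmjd2b hairpin, a fall of -0.51 ± 0.11 (adjusted p = 0.0105 over all probe sets). These probe sets of Atf7ip disagree, and which transcripts they detect was not tested.

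Of 4 readers of methylated H3K9, 1 rose and 1 fell. Cbx5 (HP1 alpha) read 1111, 1538 and 1340 in controls and 1820, 1946 and 1895 with the Jmjd2b hairpin. All Jmjd2b arrays of Cbx5 lay above its controls, at 142% of their mean (0.51 ± 0.15, adjusted p = 0.0296). Its 4 brighter probe sets changed by 0.04 to 0.77, and 2 of them passed the test. Mphosph8, the chromodomain subunit of the HUSH silencing complex, read 2269, 2552 and 2692 in controls and 1867, 1684 and 2229 with the Jmjd2b hairpin. Its highest Jmjd2b array lay just under its lowest control, and the change was -0.38 ± 0.12 (76.9% of control, adjusted p = 0.0435). The other brighter probe sets of Mphosph8 gave -0.40 and -0.30 and did not pass, and its call was lost with the mean of probe sets. Cbx3 (HP1 gamma) read 74.7, 66.5 and 71.6 in controls and 93.3, 89.0 and 108 with the Jmjd2b hairpin (0.37 ± 0.13, adjusted p = 0.0618), on a dim probe set, as its 4 other probe sets carried a second symbol and were not used. Cbx1 (HP1 beta) stood at 104% of control (adjusted p = 0.598), with its other brighter probe sets between -0.15 and 0.41.

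Of 3 demethylases, 1 rose and 1 fell. Kdm1a (LSD1), which removes methyl groups from H3K4 and, with some partners, from H3K9, read 5384, 5383 and 5880 in controls and 4688, 4100 and 4370 with the Jmjd2b hairpin. The groups did not overlap, and Kdm1a fell to 79.0% of control (-0.34 ± 0.08, adjusted p = 0.0117), with its second probe set at -0.41. Jmjd1c, of the Kdm3 family of H3K9 demethylases, read 1993, 2248 and 1954 in controls and 2509, 2722 and 2354 with the Jmjd2b hairpin. It rose to 122% of control without overlap (0.29 ± 0.09, adjusted p = 0.0363), and dimmer probe sets of Jmjd1c rose by 0.84 and 1.03. Phf2, a plant homeodomain protein of the same enzyme class, had a change of 0.20 ± 0.26 (adjusted p = 0.635), and its arrays overlapped.

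Of 5 remodellers, chaperones and structural factors of heterochromatin, 1 rose. Atrx, which deposits histone H3.3 at telomeres and repeats together with Daxx, read 1356, 1707 and 1562 in controls and 2023, 2139 and 2123 with the Jmjd2b hairpin. Its groups did not overlap, and the mean was 136% of control (0.44 ± 0.10, adjusted p = 0.0078), with its 5 brighter probe sets between 0.44 and 0.59. The adjusted p of Atrx was 0.0548 with the array set as a block. Daxx, its chaperone partner, had a change of 0.42 ± 0.18 (adjusted p = 0.126). Morc3, an ATPase of silenced chromatin, read 2531, 2672 and 2573 in controls and 1949, 1990 and 2445 with the Jmjd2b hairpin (-0.29 ± 0.12, adjusted p = 0.0978). Hells (Lsh), a remodeller needed for DNA methylation of repeats, had a change of -0.30 ± 0.13 (adjusted p = 0.144), while its other probe sets gave 0.22 and 0.48. Smchd1, known from X inactivation, had one of 0.14 (adjusted p = 0.271).

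Of 7 deacetylase corepressor subunits and methyl-CpG proteins, 1 rose and 1 fell. Sin3a, the scaffold of the Sin3 deacetylase complex, read 1166, 1304 and 1333 in controls and 843, 795 and 940 with the Jmjd2b hairpin. All Jmjd2b arrays lay below all controls, and the means were 1268 ± 89.1 and 860 ± 73.7 (SD, n = 3 each), or 67.8% of control (-0.55 ± 0.11, adjusted p = 0.0060). Its other brighter probe sets gave -0.60 and -0.42. Hdac1, a deacetylase shared by the Sin3 and NuRD complexes, read 4163, 4392 and 4342 in controls and 4999, 4871 and 4933 with the Jmjd2b hairpin. The rise of Hdac1 was small but without overlap, to 115% of control (0.20 ± 0.06, adjusted p = 0.0260). With the replicate number as a block its adjusted p was 0.0502.

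Chd4, Mbd3 and Mbd2, subunits of NuRD, had positive values that stopped short of the threshold. Chd4, the NuRD remodelling ATPase, read 1246, 2306 and 1755 in controls and 2568, 2500 and 2315 with the Jmjd2b hairpin (0.52 ± 0.18, adjusted p = 0.0696). Its lowest Jmjd2b array lay just above its highest control, and the controls spread widely. Another probe set of Chd4 did pass, with a change of 0.45 ± 0.11 (adjusted p = 0.0144 over all probe sets). Mbd3, which holds NuRD together, read 381, 427 and 405 in controls and 491, 551 and 545 with the Jmjd2b hairpin (0.37 ± 0.12, adjusted p = 0.0514, or 0.0461 with the replicate number as a block). Mbd2, its methyl-CpG-binding relative, had a change of 0.40 ± 0.20 (adjusted p = 0.181), while its other brighter probe set gave -0.16. Mbd1, a methyl-CpG protein linked to Setdb1, had one of 0.13 (adjusted p = 0.696), and Hdac2, the paralog of Hdac1, one of -0.17 ± 0.08 (adjusted p = 0.169).

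All 9 factors that changed had every Jmjd2b array outside the range of the controls. Their sign within an array set was thus fixed in advance and is no further check. All 7 of them with more than 1 brighter probe set kept their sign at each. With the array set as a block, Sin3a, Zmynd11, Kdm1a, Mphosph8 and Jmjd1c still changed, whereas Ehmt1, Atrx, Hdac1 (adjusted p = 0.0949) and Cbx5 (adjusted p = 0.129) did not. Single arrays mattered for the number of calls. Of the 27 H3K9 factors, 3 changed without control 3 (14.5% of all genes) and 3 without Jmjd2b array 2 (15.1%). Without Jmjd2b array 1 there were 4, and without control 1 there were 5 (18.1% of all genes in both fits). The Jmjd2c arrays enter this comparison through the common estimate of the spread. Sin3a, Ehmt1, Atrx and Zmynd11 kept their calls without any single array.

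**Figure D2:**
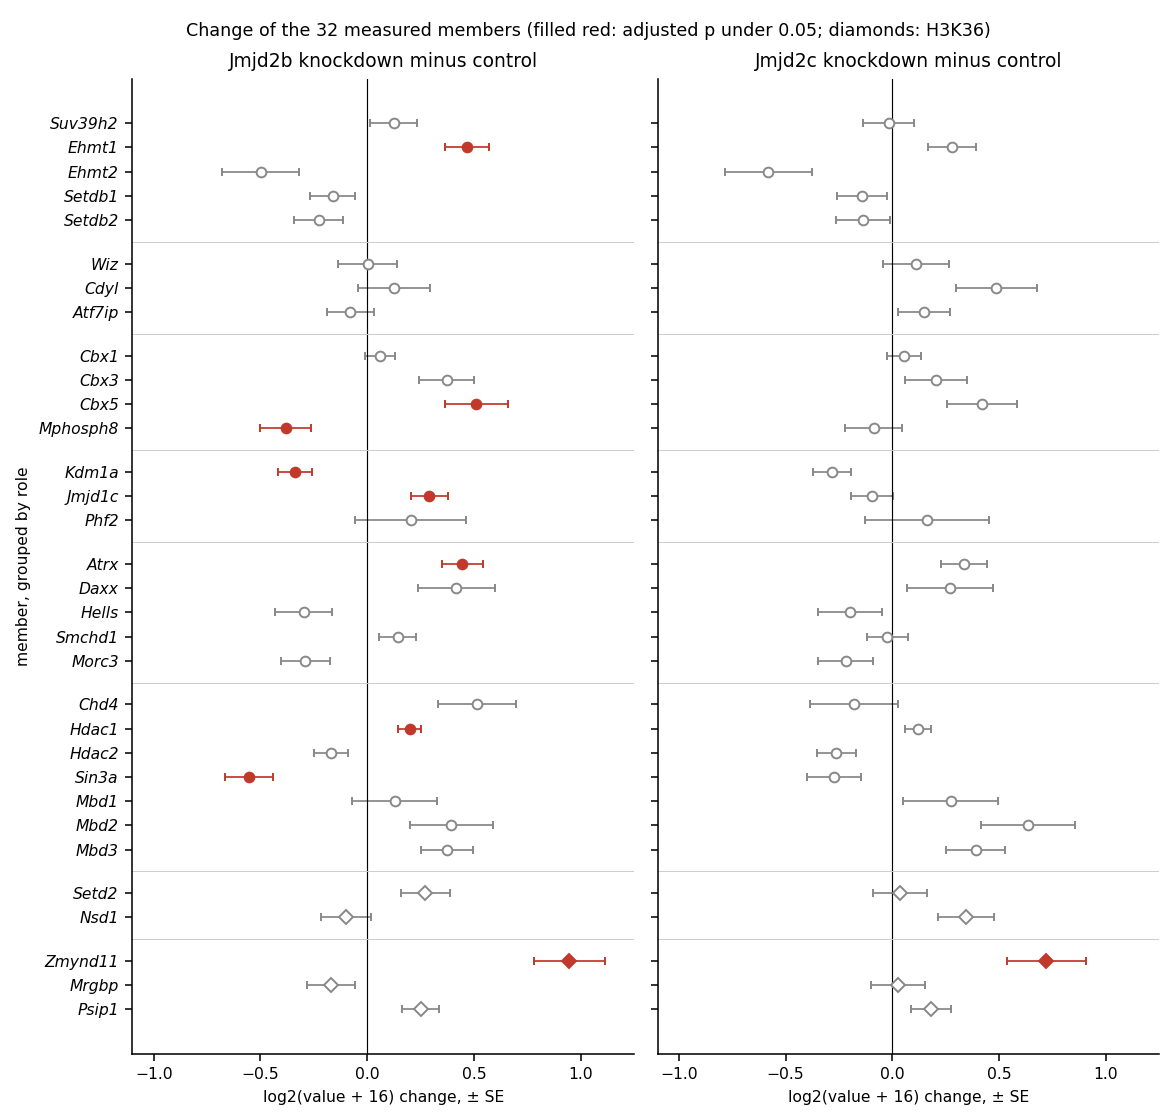
Log2 change with its SE for each of the 32 factors in the Jmjd2b and Jmjd2c knockdowns against the same 3 controls, on an axis of log2(intensity + 16) differences, ordered by role. Zmynd11 is the highest point in both knockdowns, at 0.95 and 0.72, and Sin3a, at -0.55, is the lowest in the Jmjd2b knockdown.

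**Figure D3:**
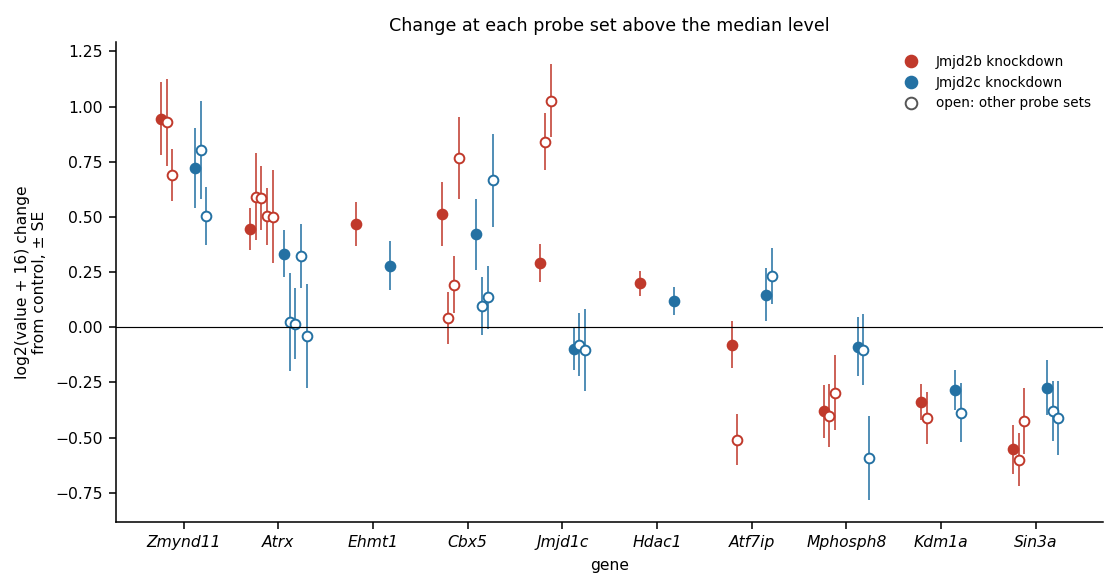
Log2 change from control with its SE, in the Jmjd2b and the Jmjd2c knockdown, at every probe set with a mean above the median intensity of 45.8, for the 9 factors that changed and for Atf7ip. Filled points are the probe sets used for the gene and open points the others. The 3 probe sets of Zmynd11 lie above 0 and the 3 of Sin3a below it in the Jmjd2b knockdown, and the open point of Atf7ip lies at -0.51 while its filled one lies at -0.08.

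In cells with the Jmjd2c hairpin, Zmynd11 was the factor that changed. Its mean was 562 ± 194 (SD, n = 2), or 173% of control, a change of 0.72 ± 0.19 (adjusted p = 0.0390). The value rests on unequal arrays, at 131% and 215% of the control mean. Without Jmjd2c array 2 the change was 0.37 (adjusted p = 0.125), and without Jmjd2c array 1 it was 1.07 (adjusted p = 0.0011). Each of these fits leaves 1 Jmjd2c array, which is assumed to vary like the arrays of the other groups, so its p holds no spread of the Jmjd2c knockdown. With the replicate number as a block the adjusted p was 0.0696, and the call of Zmynd11 was lost in 14 of 22 alternatives, among them those without any 1 of the 3 controls (0.0771 to 0.135) or of the 3 Jmjd2b arrays (0.0553 to 0.0672). The Jmjd2c arrays were compared with the same 3 controls as the Jmjd2b arrays, so the 2 sets of changes share that part of their error.

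None of the 27 H3K9 and heterochromatin factors passed limma's test in the Jmjd2c knockdown, although 9 had an unadjusted p under 0.05, as did 23.9% of all genes. Of the 5 H3K36 factors, 1 rose. Of all genes, 9.59% changed (4.31% up, 5.28% down), and of brighter genes 15.3%. The arrays did not overlap with the controls in 14 of 27 and 3 of 5 factors, and in 38.6% of all genes, or 48.5% of brighter ones. The median change was 0.05 over the H3K9 factors and 0.18 over the H3K36 factors, against -0.02 over all genes. All 5 H3K36 factors had positive values, and 14 of 27 H3K9 factors.

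Kdm1a came nearest to the threshold among the H3K9 factors. Its Jmjd2c arrays read 4923 and 4208, both below the lowest control, a change of -0.28 ± 0.09 (82.3% of control, adjusted p = 0.0750). Atrx read 1989 and 1889, both above its controls (0.33 ± 0.11, adjusted p = 0.0814). The probe sets of Atrx disagreed with this hairpin, since the 4 other brighter ones gave 0.32, 0.02, 0.02 and -0.04. Ehmt1, at 1986 and 1965, was also above its controls (0.28 ± 0.11, adjusted p = 0.163), and Ehmt2, at 639 and 375, was below them (-0.58 ± 0.20, adjusted p = 0.107). The dimer partners thus had values of opposite sign with this hairpin too, without passing the test.

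Other factors had values that did not pass the test. Mbd2 read 310 and 523 with the Jmjd2c hairpin (163% of control, 0.64 ± 0.22, adjusted p = 0.101, or 0.0472 with the replicate number as a block), where its other probe set gave 0.12, and Mbd3 read 479 and 597 (0.39 ± 0.14, adjusted p = 0.109). Hdac2, at -0.26 ± 0.09, had an adjusted p of 0.104. Nsd1, at 1583 and 1857, lay above its controls of 1141, 1491 and 1430 (0.35 ± 0.13, adjusted p = 0.137), but its other brighter probe sets gave -0.13, -0.22 and 0.18. Cdyl, at 1818 and 1373, lay above its controls of 891, 1272 and 1246 (0.49 ± 0.19, adjusted p = 0.144). Cbx5, at 1485 and 2108, overlapped its controls (0.42 ± 0.16, adjusted p = 0.147). Sin3a, at 1149 and 950, lay below its controls (-0.27 ± 0.13, adjusted p = 0.223).

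At their main probe sets, the remaining factors had changes between -0.22 and 0.27 with the Jmjd2c hairpin and adjusted p-values from 0.281 upwards. Hdac1 stood at 109% of control (0.12 ± 0.06, adjusted p = 0.281), Psip1 at 113% (adjusted p = 0.289), Mphosph8 at 94.2% (adjusted p = 0.754), Jmjd1c at 93.3% (adjusted p = 0.613), Setd2 at 103% (adjusted p = 0.910) and Mrgbp at 102% (adjusted p = 0.939). Setdb1 and Setdb2 both stood at 90.4% of control, Suv39h2 at 98.6% and Cbx1 at 104%. The changes were 0.27 for Daxx and for Mbd1, 0.21 for Cbx3, 0.16 for Phf2, 0.15 for Atf7ip, 0.11 for Wiz, -0.02 for Smchd1, -0.18 for Chd4, -0.20 for Hells and -0.22 for Morc3. Other brighter probe sets gave 0.32 and -0.13 for Chd4, 0.26 and -0.003 for Hells, -0.10 and -0.59 for Mphosph8, and -0.15 for Mbd1. Those of Cbx1 lay between -0.03 and 0.50, and none of these probe sets passed the test.

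The 2 Jmjd2c arrays differed from each other in many of the factors. Array 2 lay farther from the control mean than array 1 in 22 of 32 factors (68.8%), against 54.7% of all genes. The median gap between the arrays was 0.23 on the log2 scale over the factors and 0.24 over all genes. Phf2 had the widest gap, at 74.5% of control on array 1 and 168% on array 2. Ehmt2 stood at 86.0% and 50.5%, Mbd1 at 89.1% and 169%, Mbd2 at 121% and 204%, and Hells at 105% and 72.0%. Kdm4c itself read 142 on array 1 and 469 on array 2, the array that was farther from control in most factors. Whether residual Kdm4c and this distance are related was not tested. The median SD between arrays over the factors was 0.16 in the Jmjd2c knockdown, 0.11 in controls and 0.10 in the Jmjd2b knockdown. Without Jmjd2c array 1, 7 H3K9 factors passed the test in the Jmjd2c knockdown: Ehmt2, Cbx5, Kdm1a, Hells, Mbd1, Mbd2 and Mbd3. That fit called 16.1% of all genes, and since it compares a single Jmjd2c array with the controls, its spread comes from the control and Jmjd2b arrays alone.

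**Figure D4:**
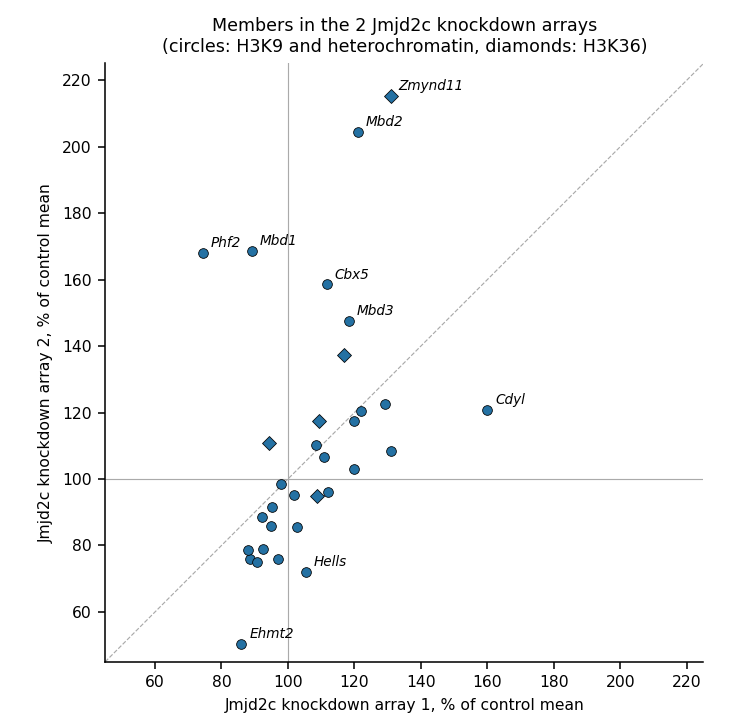
Each of the 32 factors as percent of the control mean on Jmjd2c array 1 and on Jmjd2c array 2, on linear axes. Factors away from the diagonal differ between the arrays, with Phf2 (74.5% and 168%), Zmynd11 (131% and 215%) and Ehmt2 (86.0% and 50.5%) among them.

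The difference between the knockdowns was tested directly, and none of the 32 factors passed in limma at its main probe set. At an unadjusted p under 0.05 there were 3, namely Jmjd1c, Chd4 and Nsd1, against 13.1% of all genes. Of all genes, 0.693% differed between the knockdowns, 0.203% higher and 0.489% lower with the Jmjd2c hairpin, and of brighter genes 1%. The arrays of the knockdowns did not overlap in 11 of 27 and 2 of 5 factors, and in 27.1% of all genes, or 30.5% of brighter ones. The median difference, Jmjd2c minus Jmjd2b, was -0.01 over the H3K9 factors and -0.07 over the H3K36 factors, against 0.00 over all genes.

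Jmjd1c had the lowest adjusted p of the factors. It read 1964 and 1889 with the Jmjd2c hairpin, within or below its controls, and below all its Jmjd2b arrays (difference -0.39 ± 0.10, adjusted p = 0.118). The other brighter probe sets of Jmjd1c did pass the test over all probe sets. The first of them read 76.4, 78.3 and 79.1 in controls, 151, 138 and 169 with the Jmjd2b hairpin, and 72.8 and 73.0 with the Jmjd2c hairpin (difference -0.92 ± 0.14, adjusted p = 0.0323). The other read 60.0, 70.4 and 53.7, then 146, 121 and 158, then 67.1 and 45.9 (difference -1.13 ± 0.19, adjusted p = 0.0363). At both, the Jmjd2b arrays stood apart from every control and Jmjd2c array. With the mean of its probe sets, Jmjd1c as a gene also differed (-0.81, adjusted p = 0.0222).

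The second probe set of Atf7ip differed in the opposite sense. It read 654 and 598 with the Jmjd2c hairpin, above its controls, and 389, 352 and 363 with the Jmjd2b hairpin, below them (difference 0.74 ± 0.13, adjusted p = 0.0444). At the main probe set of Atf7ip the difference was 0.23 (adjusted p = 0.485). Chd4 read 1637 and 1394 with the Jmjd2c hairpin, below all its Jmjd2b arrays and within the range of its controls (difference -0.70 ± 0.21, adjusted p = 0.174), and its other probe sets gave -0.57 and -0.13. Nsd1 had a difference of 0.45 ± 0.13 (adjusted p = 0.175), with both Jmjd2c arrays above all Jmjd2b arrays, while its other brighter probe sets gave 0.10, -0.73 and -0.05. For Zmynd11 the difference was -0.22 ± 0.19 (adjusted p = 0.689). In the array set that held both knockdowns, the differences were -0.29 for Jmjd1c, -0.61 for Chd4 and -0.16 for Zmynd11. The signs for Jmjd1c and Chd4 were fixed in advance, since their knockdown arrays did not overlap.

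Further genes of the same pathways were counted from lists chosen with earlier results of these data known, so their shares describe these lists only. The Jmjd2b hairpin went with 5 rises and 12 falls among 46 other H3K9 and heterochromatin genes (37.0%, against 24.4% of all genes). Of the 43 brighter ones 15 changed (34.9%), against 36.7% of all brighter genes. Those that rose were Pphln1, Zbtb33, Rbbp7, Gatad2a and Asf1a. Those that fell were Uhrf1, Dnmt1, Kdm3b, Zfp57, Prdm16, Lmnb2, Chaf1b, Mbd4, Cdyl2, Mga, Sap30 and Baz2a. In the Jmjd2c knockdown 3 rose and 1 fell (8.70%, against 9.59% of all genes), and 4 of the 43 brighter ones (9.30%, against 15.3%).

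Pphln1 (periphilin), which sits in the HUSH complex with Mphosph8, rose from 358 ± 51.0 (SD, n = 3) in controls to 1328 ± 157 (SD, n = 3) with the Jmjd2b hairpin (1.85 ± 0.20, adjusted p = 2.33e-04) and also rose with the Jmjd2c hairpin (0.998 ± 0.22, adjusted p = 0.0218). The latter call was lost in 6 of 22 alternatives, among them those without control 1 (adjusted p = 0.0587), control 3 (0.0943) or Jmjd2c array 2 (0.0687), and the change was 0.61 to 1.39 with 1 array left out. Cdyl2, a relative of Cdyl, fell with both hairpins, with changes of -1.79 (Jmjd2b) and -1.19 (Jmjd2c, adjusted p = 0.0115). Asf1a, a chaperone of histones H3 and H4, rose in both, by 0.89 and 0.76 (adjusted p = 0.0045 with the Jmjd2c hairpin). Prdm16, an H3K9 methyltransferase of the PRDM family, fell by 1.45 with the Jmjd2b hairpin and had a value of -0.62 with the Jmjd2c hairpin (adjusted p = 0.105). Zfp462, a zinc-finger protein that recruits Ehmt1 and Ehmt2, rose with the Jmjd2c hairpin (0.48 ± 0.12, adjusted p = 0.0326), and its difference between the knockdowns was 0.63 (adjusted p = 0.0511). The call of Zfp462 was lost in 12 of 22 alternatives, among them those without any 1 of the 3 controls (0.0757 to 0.0942), Jmjd2b array 1 or 2 (0.0605 and 0.0567) or Jmjd2c array 2 (0.124), and the change was 0.30 to 0.66 with 1 array left out. None of the 46 passed limma's test between the knockdowns, with 10 at an unadjusted p under 0.05, against 13.1% of all genes.

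Among 29 other H3K36 genes, the Jmjd2b hairpin went with 8 rises and 7 falls (51.7%, against 24.4% of all genes, and 13 of the 26 brighter ones, against 36.7%). Those that rose were Smyd2, Kdm2b, Kdm8, Riox1, Dnmt3a, Dnmt3b, Glyr1 and Iws1. Those that fell were Setd3, Brd1, Msh6, Mtf2, Phf19, Hdgfl2 and Chd2. Dnmt3b is also one of the primed epiblast markers. In the Jmjd2c knockdown 1 rose and 2 fell (10.3%, against 9.59% of all genes), and 2 of the 26 brighter ones changed (7.69%, against 15.3%). None of the 29 passed limma's test between the knockdowns, with 6 at an unadjusted p under 0.05, against 13.1% of all genes.

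Kdm2b, a demethylase of dimethylated H3K36, rose from 1236 ± 64.5 to 1882 ± 151 (SD, n = 3 each) with the Jmjd2b hairpin (0.60 ± 0.10, adjusted p = 0.0019), and its difference between the knockdowns was -0.44 (adjusted p = 0.115). Kdm8, a JmjC protein first described as an H3K36 demethylase, rose by 0.94 and 0.76 (adjusted p = 0.0147 with the Jmjd2c hairpin). Smyd2, a methyltransferase with H3K36 among its reported substrates, rose by 1.06 with the Jmjd2b hairpin (adjusted p = 0.0026) and had a value of 0.68 with the Jmjd2c hairpin (adjusted p = 0.0656, or 0.0253 with the replicate number as a block). Chd2, a remodeller that places H3.3 in transcribed genes, fell by 1.33 on the log2 scale with the Jmjd2b hairpin (adjusted p = 8.96e-04) and by 0.78 with the Jmjd2c hairpin (adjusted p = 0.0458). Mtf2, a Polycomb-associated protein with a Tudor domain, fell in the Jmjd2c knockdown as well (-0.41 ± 0.11, adjusted p = 0.0494). With the Jmjd2c hairpin, the calls of Mtf2 and Chd2 were lost in 15 and 10 of 22 alternatives, and their adjusted p-values with the replicate number as a block were 0.0921 and 0.0907.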

How the data were processed

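RNA from 8 samples was measured on 1 array each. Per the labels' protocols, biotinylated cRNA was made from total RNA following the array maker's protocol. The authors deposited 1 linear intensity per probe set and array, and their summary of probes, background correction and scaling are not given in the sources used here. Of 45101 probe sets, 34945 had 1 gene symbol in GEO's platform annotation, which can be old, 932 had several and were left out, and 64 array controls were left out.

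The members and lists were chosen with earlier results of these data known. For each gene the brightest probe set by mean was used, values were taken as log2(intensity + 16), and all 8 arrays were fitted together in limma 3.58.1 (R 4.3.3; lmFit, eBayes with trend, two-sided), with Benjamini-Hochberg adjustment over 18193 genes and a threshold of 0.05. A fold on this scale understates the change of dim genes. Single probe sets were adjusted over all probe sets. The script was tested on simulated data. Percent of control is a ratio of mean intensities, without the added 16. Every measured member was named, with fuller statistics for those past the threshold. Of the other pathway genes, values were given for up to 4 a comparison with the smallest p past the threshold, or else 2. Genes above the median level formed the brighter part. Array sets were defined by shares of exactly equal values, 0.412% to 0.621% of probe sets within a set and at most 0.0798% between sets.

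Replicate numbers came from the titles. Same-numbered control and Jmjd2b arrays deviated together from their group means (correlations of 0.176, 0.111 and 0.116), so the fit with the number as a block is given where it changes a call. For the 2 Jmjd2c pairs the correlations were 0.0408 and 0.0633. Alternatives changed the pseudocount, scaling, filter, probe set rule, samples, trend, blocks and threshold, and left out each array. Promoter windows and start sites came from RefSeq (GRCm38.p6).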

Additional observations from a re-analysis of the deposited data

Results flagged for a closer look

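The Jmjd2b and Jmjd2c knockdowns were each compared with the same controls, and the tested difference between them (Jmjd2c minus Jmjd2b) passed the threshold in limma for 126 of all 18193 genes. Among the factors, the pathway genes, the KDM4 family and the markers, it passed for the following. Kdm4b, the target of the Jmjd2b hairpin, differed by 2.60 ± 0.31 (SE, adjusted p = 0.0142). At a dimmer probe set of Atf7ip, the partner of Setdb1, the difference was 0.74 ± 0.13 (adjusted p = 0.0444), with control arrays at 490 to 588, Jmjd2b arrays at 352 to 389 and Jmjd2c arrays at 598 and 654. At 2 dimmer probe sets of the Kdm3-family gene Jmjd1c, the differences were -0.92 ± 0.14 (adjusted p = 0.0323) and -1.13 ± 0.19 (adjusted p = 0.0363), with the Jmjd2b arrays above all other arrays. Of the trophectoderm markers, Cdx2 differed by -3.52 ± 0.22 (adjusted p = 2.71e-04) and Krt8 by -2.49 ± 0.29 (adjusted p = 0.0137). Krt18, which was counted in the primed epiblast list, differed by -1.82 ± 0.28 (adjusted p = 0.0300). All of these markers were lower with the Jmjd2c hairpin. The main probe sets of Atf7ip and Jmjd1c did not pass this test. No group had 4 or more arrays, so single arrays were not tested as outliers.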

How the results depend on the processing

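No result changed sign after being called. In the Jmjd2b knockdown, Zmynd11 and Sin3a passed in all 22 alternatives, Ehmt1 and Atrx in all but the one with the array set as a block, and Kdm1a, Jmjd1c, Mphosph8, Cbx5 and Hdac1 failed in 4, 7, 8, 9 and 10. Of the H3K9 factors, 8 changed with the Jmjd2b hairpin (24.4% of all genes). With only the 2 groups compared 13 did (30.9%), Ehmt2, Cbx3, Hells, Morc3 and Mbd3 among them. There were 4 without the variance trend (22.8% of all genes), 4 with the array set as a block (16.5%) and 3 at a threshold of 0.01 (13.5%). Of the H3K36 factors, where 1 changed, 2 did among the brighter genes, with only the 2 groups compared and with the array set as a block. With the Jmjd2c hairpin, the H3K9 count of 0 became 1 with the replicate number as a block (Mbd2), and the H3K36 count of 1 became 0 with the mean of probe sets, only the 2 groups compared, no trend, the replicate number, array type (values floored at 1 or not) or array set as a block, and a threshold of 0.01. Between the knockdowns, the H3K9 count of 0 became 1 with the mean of probe sets (Jmjd1c).

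Over all genes, 4446 changed with the Jmjd2b hairpin and 2452 at a threshold of 0.01. With the Jmjd2c hairpin 1745 changed, 876 with only the 2 groups compared, 1057 and 9 with the array type or array set as a block, and 447 at a threshold of 0.01. Between the knockdowns 126 differed, 80 with a pseudocount of 1, 2 with only the 2 groups compared, 66 without the trend, 6 and 5 with the array type or set as a block, and 2 at a threshold of 0.01. Leaving out each array gave 2635 to 5630, 469 to 2935 and 2 to 804 genes in the 3 comparisons. The lowest counts came without control 3 for both knockdowns and without Jmjd2b array 2 between them, and the highest in all 3 without Jmjd2c array 1. The same step gave 3 to 14 H3K9 and 1 to 2 H3K36 factors with the Jmjd2b hairpin, 0 to 7 and 0 to 1 with the Jmjd2c hairpin, and 0 between the knockdowns. With the replicate number as a block, 4319, 1391 and 150 genes passed in the 3 comparisons, 8 H3K9 and 1 H3K36 factors passed with the Jmjd2b hairpin, and beyond the calls named with it no other call among the factors changed. Only 2 Jmjd2c arrays, in a set with no control, limit that comparison, and the cause of these shifts was not tested.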
